A study of Mus musculus with 15 samples.

Results

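The genes described here are 10 components of bone morphogenetic protein (BMP) signalling: the ligands Bmp2, Bmp4, Bmp6 and Bmp7, the secreted antagonists Grem1 and Nog, and the target genes Id1, Id2, Id3 and Smad6. They were chosen by symbol, and each symbol mapped to 1 of the 55335 gene IDs in the expression table. All 10 had at least 1 FPKM (fragments per kilobase of transcript, scaled to the size of the library) in at least 5 of the 15 libraries, the filter that left 13653 genes for testing. None of the 10 passed limma's test at an adjusted p under 0.05 in any of the 3 comparisons between groups. By that threshold 0.00732% of all genes were called between knockout and wild-type bone after joint destabilization, 0% between destabilized and sham wild-type bone and 0.0293% between destabilized knockout and sham bone. The largest differences among them were those of Smad6, Id3 and Bmp4 between wild-type bone after joint destabilization and sham bone. Smad6 and Bmp4 lay higher in every such library than in every sham library, which held for 1.48% of all genes.

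RNA was sequenced from ground tibial subchondral bone, the bone plate beneath the joint cartilage, of male mice on the C57BL/6 background in 3 groups of 5. The first group carried Dmp1-Cre and was Pvalb fl/fl, a conditional knockout (cKO) aimed at osteocytes, and was operated on by DMM, destabilization of the medial meniscus, where the ligament that anchors the meniscus to the tibia is cut and osteoarthritis develops. The second group was wild-type with DMM, and the third was wild-type with a sham operation that left the ligament in place. Surgery was at 8 weeks of age, bone was taken 8 weeks later, and the labels call the libraries biological replicates. Pvalb encodes the calcium-binding protein parvalbumin, and Dmp1-Cre acts mainly in osteocytes and late osteoblasts, whereas the ground bone also held marrow, vessels, fibrous tissue and muscle. Knockout mice with sham surgery were not analysed here, so in the comparison of cKO DMM with sham bone genotype and surgery cannot be told apart. In bulk tissue, fewer cells of a type and less RNA per cell cannot be told apart for any gene below.

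BMPs are secreted dimers that bind pairs of type I and type II serine/threonine kinase receptors, which phosphorylate Smad1, Smad5 and Smad9. These enter the nucleus with Smad4 and switch on a small set of direct targets, among them the Id genes, which encode inhibitors of basic helix-loop-helix transcription factors, and Smad6, an inhibitory Smad that feeds back on the receptors. Noggin and gremlin hold ligands away from their receptors, so that the target genes are the usual transcript-level readout of how much signal gets through. In bone the pathway is known for driving osteoblast differentiation and fracture repair, and in vessels for keeping endothelial cells quiescent.

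The summed FPKM per library ran between 375453 and 468423. The spacing of low values of genes with 1 annotated transcript implied a depth of 1.94e+07 to 3.22e+07 fragments per library, but only 36.6% to 41.1% of low values lay within 0.05 of a whole fragment, so counts were not recovered and no count test was used. Pvalb ran between 23.7 and 166 FPKM in cKO DMM, 33.0 and 375 FPKM in wild-type DMM and 15.8 and 490.1 FPKM in sham libraries, and did not separate the groups (cKO DMM minus wild-type DMM, log2 difference -0.38, SE 0.94, limma adjusted p = 0.95; exact permutation p = 0.659). These values are for whole ground bone, which also carried uneven amounts of fast muscle, and do not measure Pvalb in osteocytes. On the first principal component, which held 32.23% of the variance, the 3 libraries farthest from the median were cKO DMM replicates 1 and 4 and wild-type DMM replicate 3. The member counts, and the differences that moved most, are given with and without them.

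Expressed per transcript length, the 3 Id genes were the most abundant of the 10. Id3 averaged 56.0 ± 18.4 FPKM, Id2 27.9 ± 4.10 FPKM and Id1 22.0 ± 6.65 FPKM over all libraries (SD, n = 15). Id3 was above Id2 in all 15 libraries, and Id2 was above Id1 in 14 of 15. Below them, Bmp6 averaged 4.78 ± 1.05 FPKM and Smad6 4.17 ± 1.25 FPKM, followed by Bmp4 with 3.53 ± 1.04 FPKM. The antagonist Grem1 averaged 3.05 ± 1.11 FPKM and Bmp2 2.78 ± 0.533 FPKM. These 5 neighbours in the order traded places between libraries: Bmp6 exceeded Smad6 in 11 of 15, Smad6 exceeded Bmp4 in 10, Bmp4 exceeded Grem1 in 11 and Grem1 exceeded Bmp2 in 8. Nog, with 1.10 ± 0.310 FPKM, and Bmp7, with 0.987 ± 0.309 FPKM, were lowest and not separated from each other, with Nog higher in 8 of 15 libraries. Nog rested on an implied 29 to 87 fragments per library and Bmp7 on 69 to 190, so counting error alone is a visible part of their spread.

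The promoters of Smad6, Bmp4, Id3 and Id2 are shown because the first 3 had the largest differences after DMM, while Id2 is a target of the same pathway with no such difference. Each runs from 250 bases before to 50 bases after the start of the gene, from the RefSeq table for build GRCm38.p6, which held 6 of the 10 genes. Smad6 lies at chr9:64022010-64022309, Bmp4 at chr14:46390620-46390919 and Id2 at chr12:25096043-25096342, all on the minus strand, and Id3 lies at chr4:136143572-136143871 on the plus strand. Capitals mark 2 motifs, searched like all others on both strands, the GC-rich element GGCGCC bound by Smad1 and Smad5 and the Smad4 element CAGAC, which reads GTCTG on the other strand.
Smad6: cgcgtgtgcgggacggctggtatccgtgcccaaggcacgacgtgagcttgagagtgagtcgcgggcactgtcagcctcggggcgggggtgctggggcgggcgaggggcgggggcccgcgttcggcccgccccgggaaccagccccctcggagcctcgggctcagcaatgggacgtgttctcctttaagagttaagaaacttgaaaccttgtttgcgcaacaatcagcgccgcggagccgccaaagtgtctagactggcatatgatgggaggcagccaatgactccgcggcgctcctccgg
Bmp4: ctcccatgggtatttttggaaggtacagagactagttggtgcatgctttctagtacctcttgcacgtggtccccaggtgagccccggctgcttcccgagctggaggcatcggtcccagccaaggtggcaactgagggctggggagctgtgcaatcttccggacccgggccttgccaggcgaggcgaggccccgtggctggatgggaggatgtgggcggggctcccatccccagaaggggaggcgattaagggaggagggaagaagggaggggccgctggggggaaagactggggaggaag
Id3: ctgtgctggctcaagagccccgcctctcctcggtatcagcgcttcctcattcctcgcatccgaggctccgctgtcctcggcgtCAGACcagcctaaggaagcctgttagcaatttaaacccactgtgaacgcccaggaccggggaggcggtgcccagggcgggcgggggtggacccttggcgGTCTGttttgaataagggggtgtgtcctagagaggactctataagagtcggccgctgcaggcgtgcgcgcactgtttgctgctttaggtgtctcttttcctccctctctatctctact
Id2: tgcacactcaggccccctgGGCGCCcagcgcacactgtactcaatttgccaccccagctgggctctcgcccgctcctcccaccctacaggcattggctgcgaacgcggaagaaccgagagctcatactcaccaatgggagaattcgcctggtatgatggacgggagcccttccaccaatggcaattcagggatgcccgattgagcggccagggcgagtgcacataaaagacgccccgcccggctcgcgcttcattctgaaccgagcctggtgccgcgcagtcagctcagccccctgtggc
Positions are those of a match's first base, counted from the start of the gene, with negative values before it. Id2 held 1 match of GGCGCC, at -231, and Id3 held 2 matches of CAGAC, at -167 and -68. Among the other members in the table, Bmp6 had CAGAC at -119, and Grem1 had GGCGCC at -78 and CAGAC at -219 and 17. Neither motif occurred in the window of Smad6 or Bmp4. The composite of GGCGCC, 5 bases of any kind and GTCT, the last letters of which overlap the second motif, occurred in none of the 6, nor did the core promoter letters TATAAA. For comparison, GGCGCC occurred in 11.9%, CAGAC in 49.6%, the composite in 0.0731% and TATAAA in 13.6% of all 32851 promoters of the same length. A match is a description of the sequence and not evidence of binding.

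Between cKO DMM and wild-type DMM bone, the comparison that asks what loss of Pvalb in osteocytes does to the diseased joint, 9 of the 10 genes had a log2 difference below 0 and 1 had one above 0, against 45.1% above 0 among all genes tested. The median difference of the 10 was -0.14, against -0.02 over all genes. None was called by limma at an adjusted p under 0.05, where 1 gene of 13653 was called (0.00732%). At an unadjusted p under 0.05, 2 of the 10 were lower, Bmp4 and Smad6, against 2.15% of all genes. None of the 10 had groups that did not overlap, against 0.132% of genes higher and 0.249% lower. Without the 3 far libraries, 4 of the 10 had differences above 0 and none had an unadjusted p under 0.05, against 1.67% of genes higher and 2.56% lower.

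Between wild-type DMM and sham bone, the comparison that asks what the disease does to the pathway, 7 of the 10 had a log2 difference above 0, against 50.4% of all genes. The median of the 10 was 0.13, and that of all genes was 0.00185. No gene of 13653 was called by limma at an adjusted p under 0.05 (0%), and 946 had an unadjusted p under 0.05 (6.93%). At that unadjusted threshold, 3 of the 10 were higher, Smad6, Bmp4 and Id3, against 5.5% of all genes, and none was lower, against 1.43%. Smad6 and Bmp4 were higher with no overlap between groups, against 1.48% of all genes. Without the 3 far libraries, of which wild-type DMM replicate 3 belongs to this comparison and the other 2 enter the shared estimate of the spread, Smad6 and Bmp4 were still without overlap, against 2.34% of all genes, and the 3 genes higher at the unadjusted threshold were Bmp4, Smad6 and Bmp6, against 6.99%.

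Between cKO DMM and sham bone, 6 of the 10 had a log2 difference above 0, against 47.9% of all genes. None of the 10 was called by limma, where 4 genes were (0.0293%). At an unadjusted p under 0.05, 1 of the 10 was higher, Smad6, against 5.84% of all genes, and none was lower, against 4.64%. None had groups without overlap, against 1.2% of genes higher and 1.05% lower. Without the 3 far libraries, 7 of the 10 were above 0, against 51.5% of all genes, and Smad6 was again the 1 gene higher at the unadjusted threshold, against 4.47%. The 3 comparisons share libraries, so each library enters more than 1 comparison, and their results are set side by side and not counted as separate evidence.

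**Figure D1:**
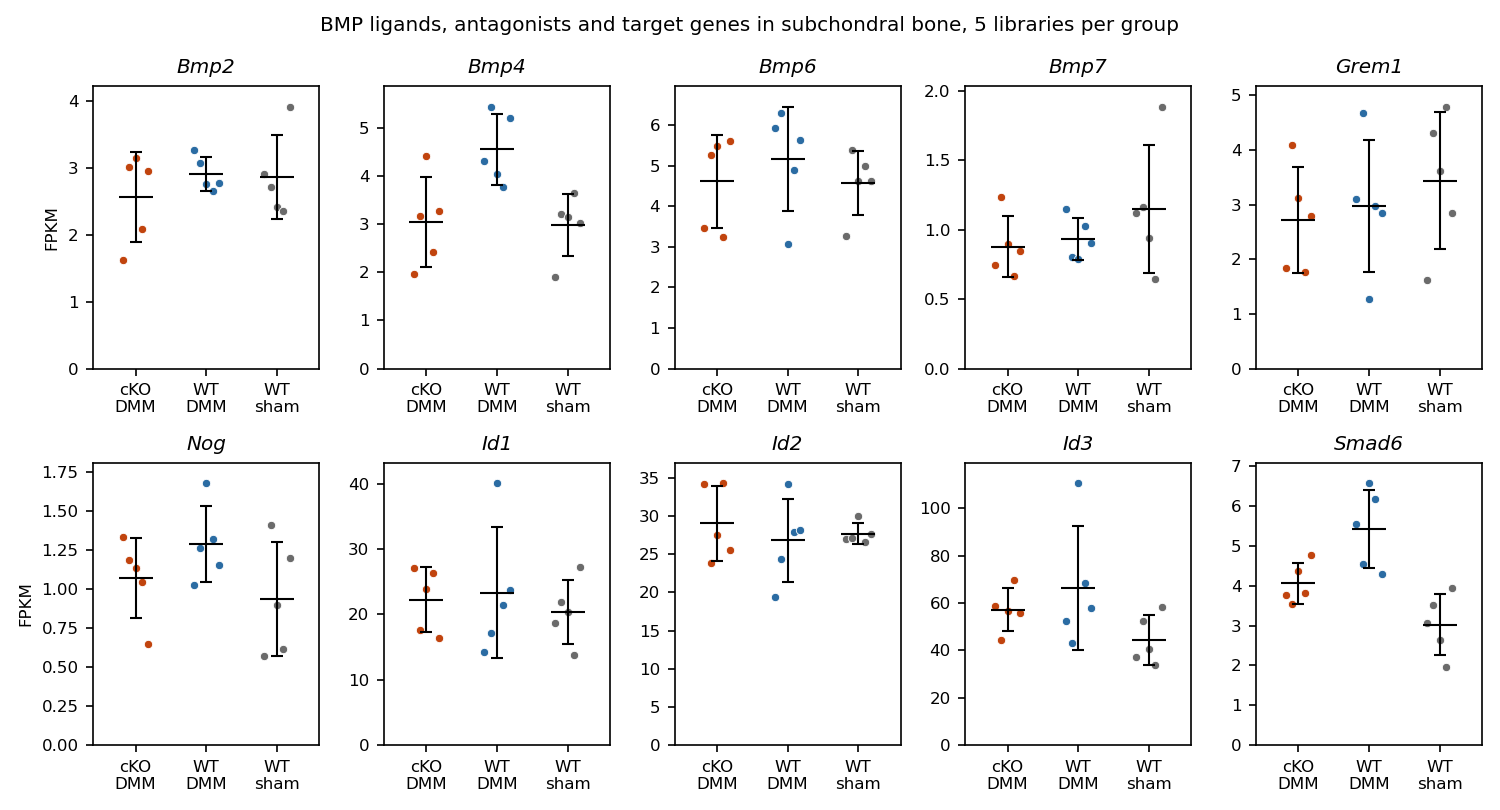
FPKM (vertical axes, from 0) of each of the 10 genes in the 5 cKO DMM, 5 wild-type DMM and 5 wild-type sham libraries, with each library as a point and the mean and SD in black. Smad6 and Bmp4 lie higher in all wild-type DMM libraries than in all sham libraries, and the other genes overlap between every pair of groups.

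Bmp4, a ligand of limb and skeletal development, had the largest difference among the ligands. Bmp4 (ENSMUSG00000021835) was at 1.96, 3.18, 4.42, 2.43 and 3.27 FPKM in cKO DMM replicates 1 to 5, at 4.31, 5.44, 4.04, 3.78 and 5.21 FPKM in wild-type DMM replicates 1 to 5, and at 1.91, 3.20, 3.15, 3.66 and 3.03 FPKM in sham replicates 1 to 5. All 5 wild-type DMM libraries were above all 5 sham libraries, and 4 of the 5 cKO DMM libraries, all but replicate 3, were below every wild-type DMM library. Bmp4 averaged 4.56 ± 0.732 FPKM in wild-type DMM and 2.99 ± 0.649 FPKM in sham bone (SD, n = 5 each), a ratio of means of 1.52. On the log2(FPKM + 1) scale, used for all differences below and compressing those of low genes, the difference was 0.49 (SE 0.16, 95% interval 0.14 to 0.83, limma adjusted p = 0.395). The exact permutation p was 0.00794, two-sided, the smallest that the 252 arrangements of 5 against 5 libraries allow. Mean Bmp4 in cKO DMM bone was 3.05 ± 0.939 FPKM, and the difference from wild-type DMM was -0.48 (SE 0.16, 95% interval -0.82 to -0.14, limma adjusted p = 0.935; exact permutation p = 0.0317). It was -0.30 without the 3 far libraries, 2 of which are the lowest cKO DMM values. Against sham bone, cKO DMM differed by 0.0082 (SE 0.16, 95% interval -0.33 to 0.35, limma adjusted p = 0.983).

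The other ligands overlapped between all groups. Bmp2 (ENSMUSG00000027358), the ligand required for fracture healing, was at 1.63, 3.01, 3.16, 2.09 and 2.96 FPKM in cKO DMM, at 3.27, 3.07, 2.75, 2.65 and 2.78 FPKM in wild-type DMM and at 2.91, 2.71, 2.41, 2.36 and 3.91 FPKM in sham replicates 1 to 5. Its wild-type DMM values were close together, while cKO DMM replicates 1 and 4 were below every library of the other groups. The log2 difference was -0.15 (95% interval -0.43 to 0.13) for cKO DMM against wild-type DMM and 0.03 (-0.25 to 0.31) for wild-type DMM against sham. Without the 3 far libraries, the first of these turned to 0.04.

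Bmp6 (ENSMUSG00000039004), known in mice as the regulator of hepcidin and also made in bone, was at 3.46, 5.26, 5.47, 3.25 and 5.60 FPKM in cKO DMM, at 5.93, 6.30, 3.06, 4.89 and 5.62 FPKM in wild-type DMM and at 3.27, 5.37, 4.62, 4.98 and 4.61 FPKM in sham replicates 1 to 5. The 2 lowest cKO DMM values and the lowest wild-type DMM value were the 3 libraries far out on the first component. The log2 difference was -0.13 (95% interval -0.51 to 0.24) for cKO DMM against wild-type DMM and 0.13 (-0.25 to 0.50) for wild-type DMM against sham. Without the 3 far libraries these were -0.048 and 0.27, and cKO DMM against sham was 0.22 in place of -0.0030. Exons of Bmp6 overlap those of Txndc5 on the opposite strand, which had 11.23 to 37.95 FPKM. The libraries were built with dUTP, which marks strand, but whether counting used strand is not stated, so Bmp6 is uncertain.

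Bmp7 (ENSMUSG00000008999), a ligand of kidney and skeletal development, was at 0.748, 1.24, 0.893, 0.664 and 0.843 FPKM in cKO DMM, at 1.15, 0.800, 0.790, 1.02 and 0.902 FPKM in wild-type DMM and at 1.12, 1.16, 0.937, 0.646 and 1.88 FPKM in sham replicates 1 to 5. Sham replicate 5 was the highest library and sham replicate 4 the lowest, so the sham group spanned both others. Its log2 difference was -0.05 (95% interval -0.32 to 0.23) between cKO DMM and wild-type DMM and -0.13 (-0.40 to 0.14) between wild-type DMM and sham. Between wild-type DMM and sham it was -0.019 without sham replicate 5 and -0.22 without sham replicate 4.

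Of the antagonists, Grem1 (ENSMUSG00000074934), which binds BMP2, BMP4 and BMP7, was at 1.84, 4.09, 3.12, 1.77 and 2.78 FPKM in cKO DMM, at 3.10, 4.69, 1.27, 2.98 and 2.84 FPKM in wild-type DMM and at 1.62, 4.31, 3.62, 4.79 and 2.85 FPKM in sham replicates 1 to 5. It varied more within groups than between them, with a 3.77-fold range over all libraries, and was lowest in wild-type DMM replicate 3, sham replicate 1 and cKO DMM replicates 4 and 1. Its log2 difference was -0.08 (SE 0.25, 95% interval -0.62 to 0.47) for cKO DMM against wild-type DMM and -0.16 (-0.71 to 0.38) for wild-type DMM against sham. Nog (ENSMUSG00000048616), encoding noggin, was at 1.33, 1.19, 1.14, 1.05 and 0.650 FPKM in cKO DMM, at 1.02, 1.27, 1.68, 1.32 and 1.16 FPKM in wild-type DMM and at 0.568, 1.41, 0.899, 0.616 and 1.20 FPKM in sham replicates 1 to 5. The 3 lowest sham values lay below all wild-type DMM values, while the other 2 lay among them. The log2 difference of Nog was 0.25 (SE 0.13, 95% interval -0.02 to 0.53, limma adjusted p = 0.785; exact permutation p = 0.119) for wild-type DMM against sham and -0.15 (-0.43 to 0.13) for cKO DMM against wild-type DMM.

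Summed over the 4 ligands, the level was 11.1 ± 2.79 FPKM in cKO DMM, 13.6 ± 2.02 FPKM in wild-type DMM and 11.6 ± 1.59 FPKM in sham bone (SD, n = 5 each). The 2 antagonists summed to 3.79 ± 0.986, 4.27 ± 1.08 and 4.38 ± 1.39 FPKM in the same groups. The ligand sum per antagonist sum was 2.96 ± 0.547, 3.26 ± 0.476 and 2.86 ± 0.886, so the mean ratios lay within 1 SD of each other. These sums were not tested.

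Smad6, the inhibitory Smad, had the largest difference of the 10 genes. Smad6 (ENSMUSG00000036867) was at 3.76, 3.55, 4.37, 3.83 and 4.78 FPKM in cKO DMM replicates 1 to 5, at 5.54, 4.56, 6.57, 6.17 and 4.30 FPKM in wild-type DMM replicates 1 to 5, and at 3.06, 3.53, 2.63, 1.96 and 3.95 FPKM in sham replicates 1 to 5. Every wild-type DMM library was above every sham library, and the cKO DMM libraries lay in between, 3 of them below all wild-type DMM libraries and 2 above all sham libraries. Smad6 averaged 5.43 ± 0.988 FPKM in wild-type DMM and 3.03 ± 0.777 FPKM in sham bone, a ratio of means of 1.79. The log2 difference was 0.68 (SE 0.14, 95% interval 0.39 to 0.98), with an unadjusted p of 0.000183, the 11th smallest among the 13653 genes, and a limma adjusted p = 0.209. The exact permutation p was 0.00794, the smallest possible. Mean Smad6 in cKO DMM bone was 4.06 ± 0.504 FPKM, and its difference from wild-type DMM was -0.34 (SE 0.14, 95% interval -0.63 to -0.04, limma adjusted p = 0.935; exact permutation p = 0.0397). It was -0.23 without the 3 far libraries and -0.13 with libraries weighted by their estimated quality. Against sham bone, cKO DMM differed by 0.35 (SE 0.14, 95% interval 0.05 to 0.64, limma adjusted p = 0.469; exact permutation p = 0.0476), which was 0.12 with the fibroblast marker level and 0.17 with the endothelial marker level as a covariate.

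Id3 (ENSMUSG00000007872) was at 58.9, 44.2, 56.8, 69.7 and 55.9 FPKM in cKO DMM, at 52.4, 43.2, 110.5, 68.3 and 57.7 FPKM in wild-type DMM and at 37.0, 52.3, 40.4, 33.8 and 58.5 FPKM in sham replicates 1 to 5. Wild-type DMM replicate 3 stood far above every other library, and the groups overlapped. Id3 averaged 57.1 ± 9.06 FPKM in cKO DMM, 66.4 ± 26.2 FPKM in wild-type DMM and 44.4 ± 10.5 FPKM in sham bone. The log2 difference between wild-type DMM and sham was 0.53 (SE 0.22, 95% interval 0.06 to 0.99, limma adjusted p = 0.604; exact permutation p = 0.0794), and 0.33 without wild-type DMM replicate 3. Between cKO DMM and wild-type DMM it was -0.15 (95% interval -0.62 to 0.32, limma adjusted p = 0.935), which turned to 0.05 without that library. Between cKO DMM and sham it was 0.37 (95% interval -0.10 to 0.84, limma adjusted p = 0.473; exact permutation p = 0.0635), which was 0.037 with the fibroblast marker level and 0.21 with the endothelial marker level as a covariate.

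Id1 and Id2 overlapped in every comparison. Id1 (ENSMUSG00000042745), a direct target long used to read BMP signalling, was at 27.1, 17.6, 23.9, 26.3 and 16.4 FPKM in cKO DMM, at 14.3, 17.1, 40.1, 21.5 and 23.8 FPKM in wild-type DMM and at 18.7, 21.9, 20.3, 13.9 and 27.2 FPKM in sham replicates 1 to 5. Its highest value was again in wild-type DMM replicate 3, followed by sham replicate 5 and then by cKO DMM replicates 1 and 4, the other far libraries. The log2 difference was -0.0071 (SE 0.24, 95% interval -0.52 to 0.51) for cKO DMM against wild-type DMM and 0.13 (-0.39 to 0.65) for wild-type DMM against sham. The difference of Id1 between wild-type DMM and sham was -0.08 without wild-type DMM replicate 3. Id2 (ENSMUSG00000020644), also induced by many signals other than BMP, was at 34.3, 23.8, 27.5, 34.3 and 25.6 FPKM in cKO DMM, at 19.5, 24.4, 34.2, 27.9 and 28.1 FPKM in wild-type DMM and at 27.1, 27.2, 30.1, 26.6 and 27.7 FPKM in sham replicates 1 to 5. The sham values of Id2 were within a narrow band, and its 3 highest values were the 3 far libraries. The log2 difference was 0.12 (SE 0.13, 95% interval -0.16 to 0.41) for cKO DMM against wild-type DMM and -0.07 (-0.35 to 0.22) for wild-type DMM against sham. Without the 3 far libraries these were 0.048 and -0.16, and cKO DMM against sham was -0.11 in place of 0.05.

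The 4 targets had a median log2 difference of -0.08 between cKO DMM and wild-type DMM, 0.33 between wild-type DMM and sham and 0.23 between cKO DMM and sham. Between wild-type DMM and sham they split, with Smad6 and Id3 at 0.68 and 0.53 and Id1 and Id2 at 0.13 and -0.07. The ligands had medians of -0.14, 0.08 and -0.06 in the same comparisons, and the antagonists -0.11, 0.04 and -0.07.

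**Figure D2:**
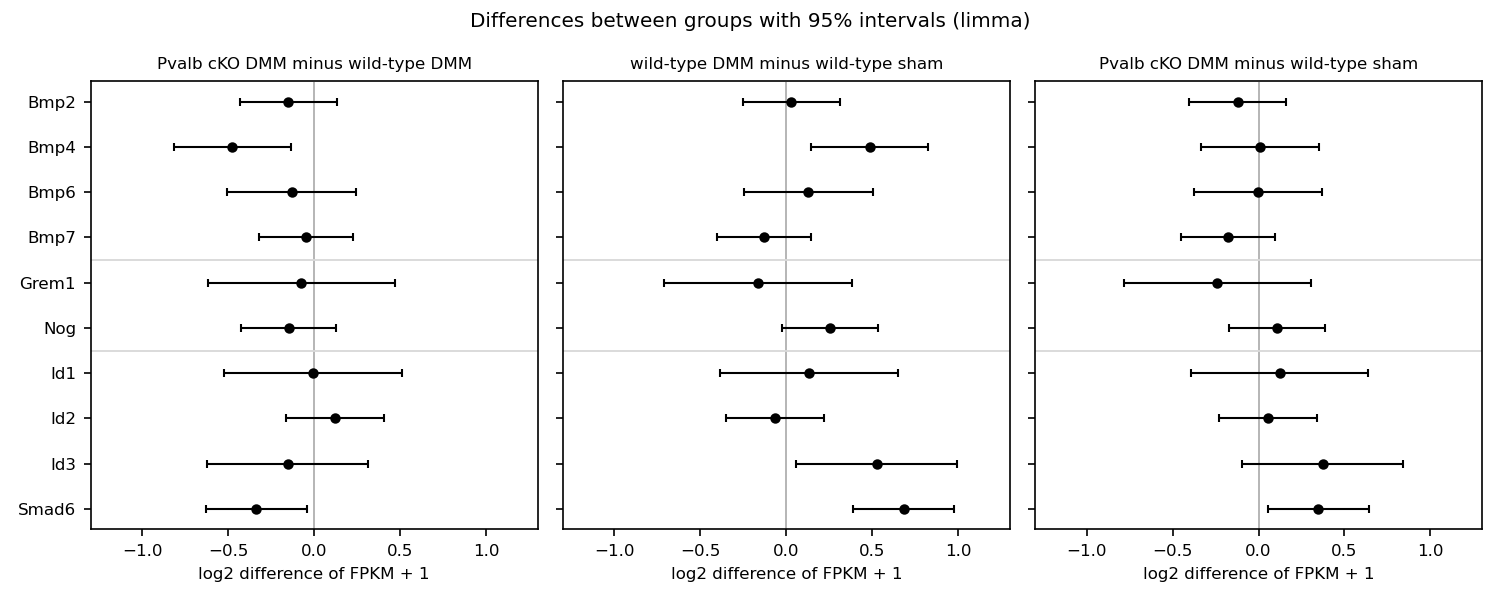
Log2 differences of FPKM + 1 (horizontal axes) with 95% intervals from the limma fit for the ligands (top), antagonists (middle) and targets (bottom), for cKO DMM minus wild-type DMM, wild-type DMM minus sham and cKO DMM minus sham. Smad6, at 0.68, Id3, at 0.53, and Bmp4, at 0.49, are farthest right in the middle panel, and Bmp4, at -0.48, and Smad6, at -0.34, are farthest left in the first.

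The targets were not 1 block across libraries. Among 46 relations computed over the 15 libraries, with p from 100000 permutations and Benjamini-Hochberg adjustment over all of them, Id1 and Id2 had a Pearson r of 0.79 (adjusted permutation p = 0.00635) and a Spearman rho of 0.80 (adjusted permutation p = 0.0117), with r = 0.84 without the 2 libraries farthest from the median of Id1. Id1 and Id3 had r = 0.80 (adjusted permutation p = 0.00635) and rho = 0.76 (adjusted permutation p = 0.017), and r = 0.53 without the 2 farthest. Id3 and Smad6 had r = 0.78 (adjusted permutation p = 0.00635) and rho = 0.64 (adjusted permutation p = 0.0836), and r = 0.58 without the 2 farthest. Smad6 had r = 0.39 with Id1 (adjusted permutation p = 0.33; rho = 0.18, adjusted permutation p = 0.721) and r = -0.06 with Id2 (adjusted permutation p = 0.878; rho = -0.02, adjusted permutation p = 0.987). Id2 and Id3 had r = 0.49 (adjusted permutation p = 0.207) and rho = 0.64 (adjusted permutation p = 0.0836). Taken as deviations from the group means, r was 0.83 for Id1 with Id2, 0.87 for Id1 with Id3 and 0.70 for Id3 with Smad6. It was 0.66 for Id2 with Id3, 0.47 for Id1 with Smad6 and 0.09 for Id2 with Smad6. Within groups of 5 libraries, Id1 with Smad6 had r = -0.35 in cKO DMM, 0.45 in wild-type DMM and 0.94 in sham bone.

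Smad6 is strongly expressed in endothelium, and its level followed the endothelial marker list, as it did the osteoblast list described below. All 10 endothelial genes were detected and tested, none was at 0 in every library, and their summed level was 69.4 to 81.0 FPKM in cKO DMM, 74.6 to 88.8 FPKM in wild-type DMM and 53.7 to 81.9 FPKM in sham libraries. Their median log2 difference between wild-type DMM and sham was 0.17, with 10 of 10 above 0, against 50.4% of all genes. Smad6 against the mean log2 level of the list gave r = 0.88 (adjusted permutation p = 0.00092) and rho = 0.83 (adjusted permutation p = 0.0117). It was 0.72 without the 2 farthest libraries and 0.86 as deviations from group means. Id3 against the same list gave r = 0.65 (adjusted permutation p = 0.0555) and rho = 0.58 (adjusted permutation p = 0.13), and r = 0.45 without the 2 farthest. Within groups of 5 libraries, Id3 had r = -0.19 in cKO DMM, 0.65 in wild-type DMM and 0.92 in sham bone. With the endothelial level as a covariate, chosen after seeing the data, the difference of Smad6 between wild-type DMM and sham was 0.39 (limma adjusted p = 0.15), and that of cKO DMM from wild-type DMM was -0.21. Bmp4 was less affected, at 0.46 between wild-type DMM and sham, whereas Id3 was 0.24.

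Fibroblast and osteoblast markers also moved with Smad6. The 10 fibroblast genes summed to 193 to 823 FPKM in cKO DMM, 276 to 565 FPKM in wild-type DMM and 91.6 to 242 FPKM in sham libraries. Their median log2 difference was 1.16 between wild-type DMM and sham, with 10 of 10 above 0, against 50.4% of all genes. Smad6 against this list had r = 0.74 (adjusted permutation p = 0.00905) and rho = 0.74 (adjusted permutation p = 0.0213), with r = 0.55 without the 2 farthest and 0.50 as deviations from group means. Within groups of 5 libraries, r was 0.65 in cKO DMM, -0.18 in wild-type DMM and 0.97 in sham bone. Id3 against the fibroblast list had r = 0.65 (adjusted permutation p = 0.0486) and rho = 0.56 (adjusted permutation p = 0.13), and r = 0.43 without the 2 farthest. With the fibroblast level as a covariate, the differences between wild-type DMM and sham were 0.43 for Smad6, 0.36 for Bmp4 and 0.16 for Id3. The 9 osteoblast genes summed to 2537 to 4242 FPKM in cKO DMM, 3157 to 5636 FPKM in wild-type DMM and 2119 to 3822 FPKM in sham libraries, with a median log2 difference of 0.50 between wild-type DMM and sham. Smad6 against the osteoblast list had r = 0.87 (adjusted permutation p = 0.00092) and rho = 0.76 (adjusted permutation p = 0.017), with r = 0.89 without the 2 farthest and 0.81 as deviations. Between wild-type DMM and sham, the osteoclast list had a median of 0.34 (7 of 7 above 0) and the osteocyte list 0.29 (4 of 6). The B cell list had 0.02 there. The chondrocyte (-0.02), marrow stroma and adipocyte (-0.02), neutrophil (-0.03), erythroid (-0.07) and macrophage (-0.08) lists were below 0. The fibroblast list had a median of 1.01 between cKO DMM and sham, with 10 of 10 above 0. The endothelial list had 0.07 there, with 7 of 10 above 0, against 47.9% of all genes. Between cKO DMM and wild-type DMM, Smad6, Bmp4 and Sost had differences below 0. The medians of the fibroblast (-0.16), endothelial (-0.11), chondrocyte (-0.39) and osteoclast (-0.15) lists were also below 0. So were those of the B cell (-0.26), erythroid (-0.06) and macrophage (-0.05) lists. Those of the fast muscle (0.76), neutrophil (0.16) and marrow stroma and adipocyte (0.0067) lists were above 0. Over all genes the median was -0.02. In the same comparison, none of 9 osteoblast genes was above 0 (median -0.38), where 45.1% of all genes were. Of 6 osteocyte genes tested, 1 was above 0 (median -0.46) and 3 were lower at an unadjusted p under 0.05, against 2.15% of all genes. Sost is itself 1 of these 3, so its difference and the result of the osteocyte list share values. The osteocyte genes summed to 78.0 to 119 FPKM in cKO DMM, 107 to 142 FPKM in wild-type DMM and 68.9 to 182 FPKM in sham libraries. The osteoblast and osteocyte levels were not used as covariates. The part of these cell types in the differences of Smad6, Bmp4 and Id3 was not tested beyond the endothelial and fibroblast covariates.

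Fast muscle, which dissected bone can carry, was present in all groups in uneven amounts. Its 12 genes summed to 476 to 2939 FPKM in cKO DMM, 248 to 2440 FPKM in wild-type DMM and 115 to 4361 FPKM in sham libraries, and their median log2 difference was 0.76 between cKO DMM and wild-type DMM and -0.81 between wild-type DMM and sham. In sham bone, which had the widest range, replicates 1 to 5 summed to 642, 4361, 2445, 115 and 3686 FPKM. Pvalb was at 71.3, 490, 300, 15.8 and 402 FPKM in these libraries. The part of muscle in the level of Pvalb was not tested. With the muscle level as a covariate, Smad6 was 0.77 higher in wild-type DMM than in sham bone (limma adjusted p = 0.00397), past the threshold, as were 253 of all 13653 genes. Over all alternatives the limma adjusted p of this difference ran between 0.00397 and 0.751. Smad6 between cKO DMM and wild-type DMM was then -0.42 (limma adjusted p = 0.64).

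**Figure D3:**
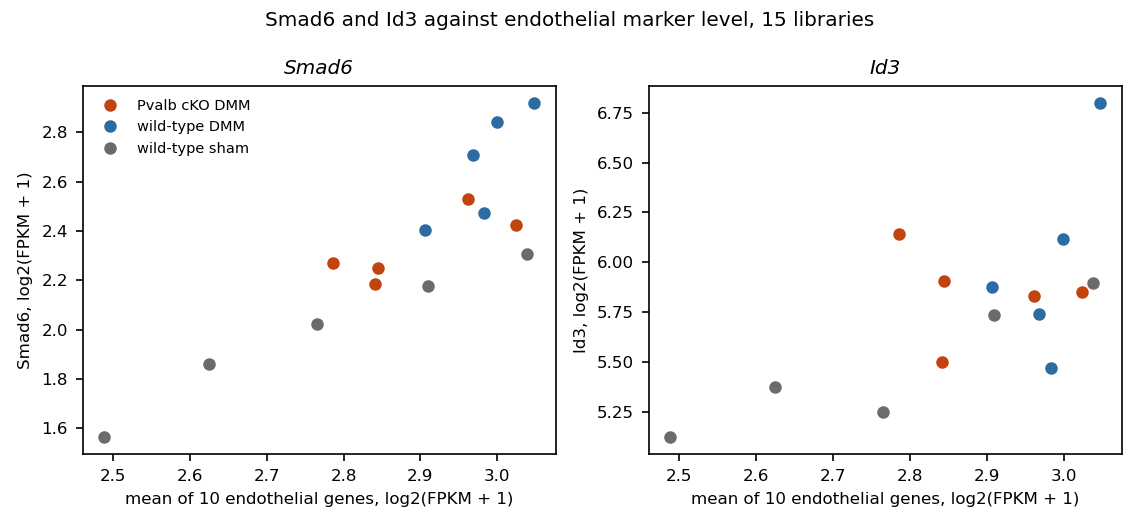
Smad6 (left) and Id3 (right), both as log2(FPKM + 1), against the mean log2(FPKM + 1) of 10 endothelial genes, with 1 point per library coloured by group. Smad6 follows the endothelial level with r = 0.88, while Id3 has r = 0.65 and 1 wild-type DMM library stands alone at the top. On the horizontal axis the groups overlap, at 2.91 to 3.05 in wild-type DMM, 2.49 to 3.04 in sham and 2.79 to 3.02 in cKO DMM libraries.

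The genes whose pattern over the 15 libraries was most like each member, by Pearson r of log2(FPKM + 1) among all genes tested, give a further description and were not tested. For Smad6 they were P3h1 (0.93), which encodes a prolyl hydroxylase of collagen, Clba1 (0.92) and the junction protein gene Cgnl1 (0.91). For Id3 they were Rhoc (0.96), Rcn2 (0.95) and Rom1 (0.95). For Id1 they were Thap4, Cracr2b and Cox14, each at 0.92, and for Id2 they were Ptpn18 (0.94), the immediate early gene Ier2 (0.93) and the pseudogene Gmfg-ps (0.93). For Bmp4 they were the prostaglandin receptor gene Ptger1 (0.87), the osteoblast proteoglycan gene Omd (0.81) and Hist1h3i (0.81). For Bmp2 they were the pyrophosphate transporter gene Ank (0.91), Dusp16 (0.90) and Tsku (0.89). For Bmp7 they were Ncmap (0.94), Phlda1 (0.90) and the cartilage collagen gene Col9a3 (0.89). Wdr86 was among the closest to both Bmp6 (0.90) and Grem1 (0.96), beside Zkscan3 (0.93) and Qk (0.90) for Bmp6 and Zfp433 (0.89) and Rprd2 (0.87) for Grem1. For Nog they were Pyroxd1 (0.89), Cep131 (0.88) and Mmp11 (0.86).

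The rest of the pathway was followed in 5 lists of 53 genes, of which 37 passed the filter. Bambi and Smad7 each stand in 2 lists. None of them was called by limma at an adjusted p under 0.05 in any of the 3 comparisons, against 0.00732%, 0% and 0.0293% of all genes. In wild-type DMM against sham bone, all 9 tested genes of the list of other BMP targets had differences above 0, with a median of 0.31, where 50.4% of all genes did. Msx1, a homeobox gene induced by BMP in limb and tooth, averaged 1.49 ± 0.325 FPKM in wild-type DMM and 0.685 ± 0.229 FPKM in sham bone, a difference of 0.56 (SE 0.11, limma adjusted p = 0.209). Msx1 passed the filter only through wild-type DMM, where every library had at least 1.195 FPKM. Sham libraries had at most 0.977 FPKM, and cKO DMM libraries ran from 0.768 to 1.19 FPKM. Its differences are therefore given as values and are not support for the list. Hey1, a target shared with Notch, had 3.10 ± 1.34 FPKM and 1.68 ± 0.760 FPKM in the same groups (difference 0.60, limma adjusted p = 0.492), and Bambi, a decoy receptor that BMP induces, had 5.25 ± 1.37 and 3.67 ± 0.790 FPKM (difference 0.41, limma adjusted p = 0.415). In cKO DMM against wild-type DMM, all 9 were below 0 with a median of -0.14, where Msx1 averaged 0.950 ± 0.172 and 1.49 ± 0.325 FPKM (difference -0.35, limma adjusted p = 0.935). The osteoblast transcription factor genes Runx2 and Sp7 differed by -0.19 and -0.30 there, and Sp7 is also in the osteoblast marker list. With the endothelial level as a covariate, the median of this list between wild-type DMM and sham was 0.0058.

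Of the 8 other antagonists and modulators tested, 6 were above 0 between wild-type DMM and sham, with a median of 0.20. Nbl1, which encodes a secreted BMP antagonist of the DAN family, averaged 48.7 ± 19.6 FPKM in wild-type DMM and 14.3 ± 5.01 FPKM in sham bone, a difference of 1.65 (SE 0.37, limma adjusted p = 0.216). Fstl1, a follistatin-like glycoprotein gene, had 26.2 ± 4.88 and 16.7 ± 2.93 FPKM (difference 0.62, limma adjusted p = 0.383), and the activin-binding Fst differed by 0.20. Under the muscle covariate Nbl1 and Msx1, the latter let through the filter by wild-type DMM alone, were the 2 listed genes past the threshold. In that setting 253 of all 13653 genes passed it. In cKO DMM against wild-type DMM, none of the 8 was above 0 and the median was -0.12. Sost, the osteocyte gene for the Wnt inhibitor sclerostin, averaged 16.5 ± 3.00 FPKM in cKO DMM and 23.4 ± 3.60 FPKM in wild-type DMM (difference -0.48, limma adjusted p = 0.935), and the BMP-binding Twsg1 differed by -0.36. With the fibroblast level as a covariate, the median between wild-type DMM and sham was -0.0076.

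Among 10 receptors and co-receptors tested, 9 were above 0 between wild-type DMM and sham with a median of 0.11, and 2 were above 0 between cKO DMM and wild-type DMM with a median of -0.11. The type I receptor gene Bmpr1a had 4.35 ± 0.470 FPKM in wild-type DMM and 3.37 ± 0.863 FPKM in sham bone (difference 0.31, limma adjusted p = 0.699). In cKO DMM against wild-type DMM, Bmpr1a differed by -0.18 and the type II receptor gene Bmpr2 by -0.17. The Smads and intracellular regulators split more evenly, with 5 of 9 above 0 between wild-type DMM and sham and a median of 0.05, and 2 of 9 above 0 between cKO DMM and wild-type DMM with a median of -0.06. The signal-carrying Smad1 differed by 0.14 and -0.06 in these comparisons, and Ski, a co-repressor of Smads, differed by 0.81 between wild-type DMM and sham (SE 0.32, limma adjusted p = 0.555). Of 3 other ligands tested, 2 were above 0 between wild-type DMM and sham with a median of 0.05, and none between cKO DMM and wild-type DMM with a median of -0.18, where Bmp3 differed by -0.18, Bmp8a by -0.38 and Bmp5 by -0.04.

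In cKO DMM against sham bone the medians of the lists were 0.16 for the other targets (8 of 9 above 0), 0.01 for the antagonists and modulators (4 of 8), 0.06 for the receptors (5 of 10), -0.07 for the Smads (3 of 9) and -0.13 for the other ligands (1 of 3), against -0.01 for all genes. The genes with the smallest p there were Nbl1, at 1.22, Fstl1, at 0.60, and Sost, at -0.53, each with a limma adjusted p of 0.469. Bambi and Msx1 differed by 0.29 and 0.22.

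**Figure D4:**
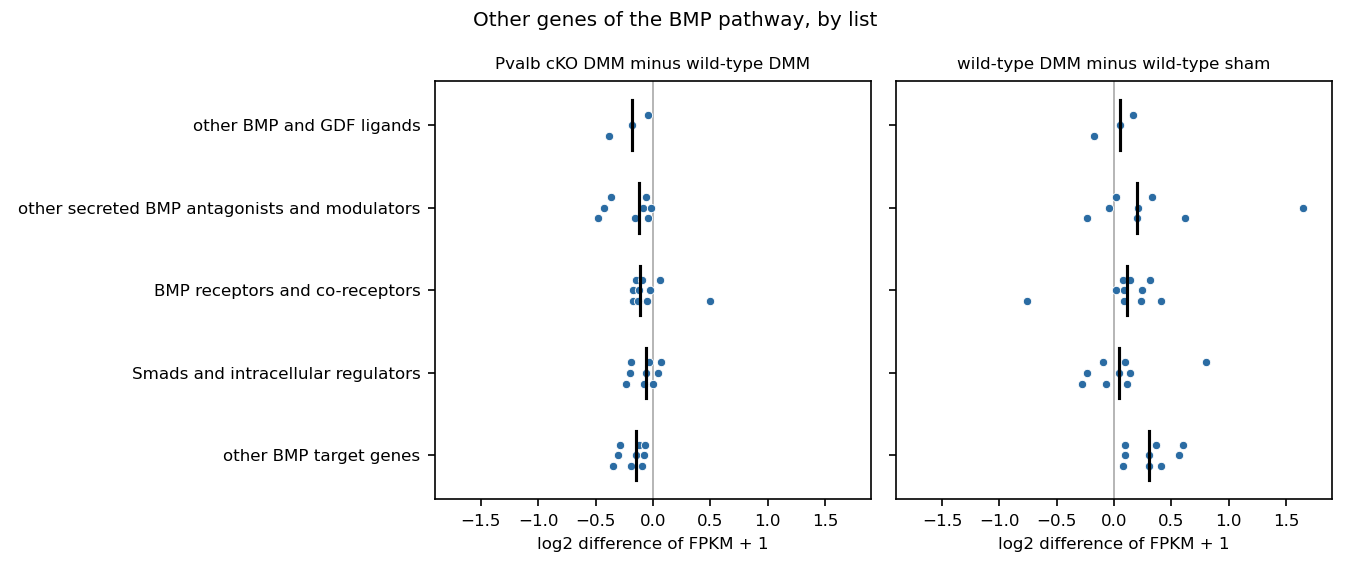
Log2 differences of FPKM + 1 (horizontal axes) of the tested genes of 5 further BMP pathway lists, 1 point per gene with the median as a black bar, for cKO DMM minus wild-type DMM (left) and wild-type DMM minus sham (right). All 9 other targets lie left of 0 in the first panel and right of 0 in the second, and the point farthest right, at 1.65, is Nbl1.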

How the data were processed

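The authors deposited FPKM values in a single table of 55335 gene IDs and 15 libraries, and 55154 IDs had a symbol in the reference tables. The submitters' processing notes list STAR 2.7.10a, featureCounts 2.0.3, FastQC 0.11.9, Trimmomatic 0.39 and build GRCm39, and which tool gave FPKM is not stated there. Columns were matched to samples by name, and 0 columns belonged to other samples.

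Log2(FPKM + 1) was fitted with limma 3.58.1 (R 4.3.3) for the 13653 genes that reached 1 FPKM in 5 or more libraries. Each of 3 groups had a mean, all groups shared 1 estimate of the spread, and p-values were adjusted by Benjamini-Hochberg over all genes tested. Members were also compared by exact two-sided permutation over 252 arrangements of 5 against 5 libraries. The fit was also run on simulated data with independent noise and planted differences larger than any seen in the 10 genes. That run does not show the power of the fit for differences of the size seen here. The members, the pathway and marker lists and the tests were chosen with earlier results of these data known. The text names the 10 members, Pvalb, up to 3 genes per pathway list and comparison with the smallest p, and the 3 genes most like each member. Other settings were a pseudocount of 0.1, testing every gene, a minimum of 5 FPKM, scaling by median of ratios, the replicate number as a block, fitting the 10 libraries compared alone, a muscle covariate, array weights, and leaving out each library or the 3 far ones. Endothelial and fibroblast covariates, and counts of members without the far libraries, were added after seeing the data. Permutation tests were computed with numpy 2.4.6, and the ranks for Spearman rho with scipy 1.17.1.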

Additional observations from a re-analysis of the deposited data

How the results depend on the processing

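Over 26 alternatives, the 762 differences of the 10 genes kept their direction and side of the threshold in 702 cases, turned sign in 59, none of them past the threshold, and passed it in 1, that of Smad6 with the muscle covariate. Smad6 between wild-type DMM and sham ran from 0.39 to 0.84, and Bmp4 from 0.36 to 0.61. A minimum of 5 FPKM gave no value for 6 of the 10. With the fibroblast covariate 64.6% of all genes were higher in wild-type DMM than in sham, against 50.4% without it. Where a value changed, the cause was not tested.

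The number of all genes called between cKO DMM and wild-type DMM was 1, but 2 without the filter, 4 with array weights and 1 to 2 with 1 library left out (2 without wild-type DMM replicate 1). Between wild-type DMM and sham it was 0, but 2 without the filter, 253 with the muscle covariate, 15 with array weights, 4 with the endothelial covariate and 0 to 2 with 1 library left out (2 without cKO DMM replicate 3, 1 without cKO DMM replicate 1 or wild-type DMM replicate 1). There, 2 listed pathway genes were called with the muscle covariate. Between cKO DMM and sham it was 4, but 7 without the filter, 8 with the muscle covariate, 22 with array weights, 7 without the 3 far libraries, and 7 and 1 with the endothelial and fibroblast covariates. With 1 library left out it was 2 to 8 (2 without cKO DMM replicate 1 or 5 or sham replicate 1 or 2, 7 and 8 without cKO DMM replicates 2 and 4).

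With the replicate number as a block, the count between cKO DMM and sham was 1, and the block changed no call of the 10 genes. Same-numbered libraries correlated at -0.46 to 0.40 in their deviations, over 0.1 in 6 of 15 pairs. Differently numbered libraries of different groups ran from -0.56 to 0.52. The labels state no pairing, and these correlations cannot exclude one.

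Signs between cKO DMM and wild-type DMM turned for Bmp2 (0.0172 with array weights, 0.0378 without the far libraries), Bmp7 (0.0135 without the far libraries, 0.0452 endothelial), Id1 (0.0101 with median-of-ratios scaling, 0.0167 without the far libraries, 0.099 endothelial, 0.0297 fibroblast) and Id2 (-0.0106 with array weights). With 1 library left out, Grem1 ran from -0.26 to 0.0685, Id1 from -0.15 to 0.20 and Id3 from -0.29 to 0.047.

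Those between wild-type DMM and sham turned for Bmp2 (-0.18 endothelial, -0.14 fibroblast), Grem1 (0.023 without the far libraries, 0.0891 fibroblast) and Id1 (-0.0796 without the far libraries, -0.13 endothelial, -0.27 fibroblast). With 1 library left out, Bmp2 ran from -0.0183 to 0.12, Grem1 from -0.34 to 0.023, Id1 from -0.0796 to 0.28 and Id2 from -0.16 to 0.0386.

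Those between cKO DMM and sham turned for Bmp2 (0.0255 with array weights, 0.0797 without the far libraries), Bmp4 (-0.00591 endothelial, -0.11 fibroblast), Bmp6 (0.21 with array weights, 0.22 without the far libraries, 0.00661 fibroblast), Grem1 (0.00644 without the far libraries), Nog (-0.0214 with array weights, -0.0201 fibroblast), Id1 (-0.0951 with array weights, -0.0629 without the far libraries, -0.0271 endothelial, -0.24 fibroblast) and Id2 (-0.0712 with array weights, -0.11 without the far libraries). With 1 library left out, Bmp4 ran from -0.10 to 0.11, Bmp6 from -0.0957 to 0.0905, Id1 from -0.000786 to 0.23 and Id2 from -0.00771 to 0.12.

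At a minimum of 5 FPKM, the median of the antagonist and modulator list was -0.40 (cKO DMM against wild-type DMM), 0.47 (wild-type DMM against sham) and 0.28 (cKO DMM against sham). With the endothelial covariate, the median of the other ligands between wild-type DMM and sham was -0.20, and that of the other targets between cKO DMM and sham was -0.0423.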

Other observations

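Several familiar genes of the BMP pathway were measured at low levels in subchondral bone. Of the 53 listed genes, 16 did not pass the filter of 1 FPKM in 5 libraries. Among the ligands, Bmp10 and Gdf2, whose products circulate from heart and liver and act on endothelium, were at no more than 0.0073 and 0.0133 FPKM in any library, and Bmp8b was at no more than 0.109 FPKM. The joint ligand Gdf5 ran between 0.0442 and 1.13 FPKM. Among the antagonists, Chrd, encoding chordin, ran between 0.169 and 0.804 FPKM, and Cer1 reached 0.0186 FPKM. The type I receptor gene Bmpr1b, which serves cartilage, ran between 0.0047 and 0.451 FPKM, while the type I receptor genes Bmpr1a, Acvr1 and Acvrl1 averaged 3.83, 2.64 and 7.91 FPKM over the 15 libraries. Among the receptor-activated Smads, Smad9 averaged 0.438 FPKM, against 2.47 FPKM for Smad1 and 6.33 FPKM for Smad5. The homeobox target Msx2 averaged 0.0432 FPKM, against 1.04 FPKM for Msx1.

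Among the secreted modulators, Nbl1, Fstl1 and Sost had the highest levels over the 15 libraries, each above the averages of Grem1 and Nog, but their order differed between groups. Nbl1 averaged 35.6 FPKM in cKO DMM, 48.7 FPKM in wild-type DMM and 14.3 FPKM in sham bone. Fstl1 averaged 26.7, 26.2 and 16.7 FPKM in the same groups, and Sost 16.5, 23.4 and 24.9 FPKM, so that Sost was the highest of these 3 in sham bone and the lowest in both DMM groups. This order was not tested.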
